A study of Mus musculus with 17 samples.

Results

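The PI3K-AKT-mTOR-FOXO axis, the signalling route from the insulin receptor to cell growth, was followed through 35 transcripts in mouse heart. The 35 genes were picked by symbol from a table of 28640 genes, and each symbol matched 1 row. All 35 met the limit for testing, a group mean that reached 0.5 FPKM somewhere, as did 13709 genes in the table. Pik3r5 met it on its tumour mean alone, and Pik3cg on the means of both tumour-bearing groups. FPKM scales reads to exon length and to library depth, so levels can be set side by side between genes.

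The hearts came from 3 groups of mice: 6 carried a transplanted CT-26 tumour and swam (tumour_swim), 6 carried the tumour without swimming (tumour), and 5 had no tumour (control). CT-26 cells are a colon carcinoma line of mouse origin. Strain, sex, age, graft site and the swimming schedule are not given in the sources, and tumour-free mice that swam were not analysed here. The title of the series names suppression of PI3K-AKT signalling by swimming, and the comparisons below give the transcript side of that question. Whether each sample is its own animal is unstated in the labels, so a p-value speaks of the spread among these 17 samples, which may include technical spread.

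Insulin and growth factors act through receptor tyrosine kinases and the docking proteins IRS1 and IRS2, which recruit PI3-kinase to the membrane. PI3-kinase makes the lipid PIP3, and PIP3 brings PDK1 and AKT together so that AKT is phosphorylated and active. Active AKT inhibits GSK3, keeps FOXO transcription factors out of the nucleus, and releases the small GTPase RHEB from the TSC complex, which switches on mTOR complex 1 and protein synthesis. In heart muscle the route is known for its part in physiological growth with exercise and in the restraint of FOXO-driven protein breakdown. The switches are phosphorylations, and the values here are RNA levels only.

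Depth ranged from 13.3 to 19.7 M reads per library, with a median of 15.8 M. Cardiomyocyte markers (Myh6, Tnnt2, Tnni3 and 7 others) summed to 7718 to 9012 FPKM in tumour_swim, 8043 to 9908 FPKM in tumour and 7990 to 11270 FPKM in control hearts. Lung surfactant and T, NK and B cell markers stayed near 0, with sums of at most 2.35 and 1.68 FPKM. Libraries tumour_swim 1, control 1 and control 4 stood apart. Genes at or above 0.5 FPKM numbered 10773, 12605 and 11852 in these 3, against 12886 to 13605 in the other 14. The mitochondrially encoded share of the FPKM total was 58.9% in tumour_swim 1, against a median of 42.0% over all libraries. The main results are therefore given with all 17 libraries and with the 14 left without these 3, while sums of markers were tested with all 17 only.

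The 3 libraries touched nearly every gene of the set. In tumour_swim 1, 34 of the 35 transcripts were at the lowest level of their group, at a median of 0.26 times the level in the other tumour_swim hearts. In control 4, 31 of 35 were the lowest of the controls, at a median of 0.40 times the level in control 2, control 3 and control 5. The same median ratio was 0.62 in control 1, where 29 transcripts were below that level. Control 2 held the highest value of the controls for 22 transcripts. Against this, Eif4ebp1, the shortest of the 35 transcripts with 2196 exonic bases, was at 1.71 times the level of the rest of its group in tumour_swim 1, 1.71 times in control 1 and 1.85 times in control 4. Across the 35 genes, which are not independent replicates, exon length and the ratio had a Spearman correlation of -0.41 in tumour_swim 1, -0.59 in control 1 and -0.60 in control 4. Such trends were not particular to these libraries: control 5 had -0.61 and tumour_swim 2 -0.45, while control 2 had 0.55, tumour 3 0.53 and control 3 0.50. Why these libraries stood apart was not tested.

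**Figure D1:**
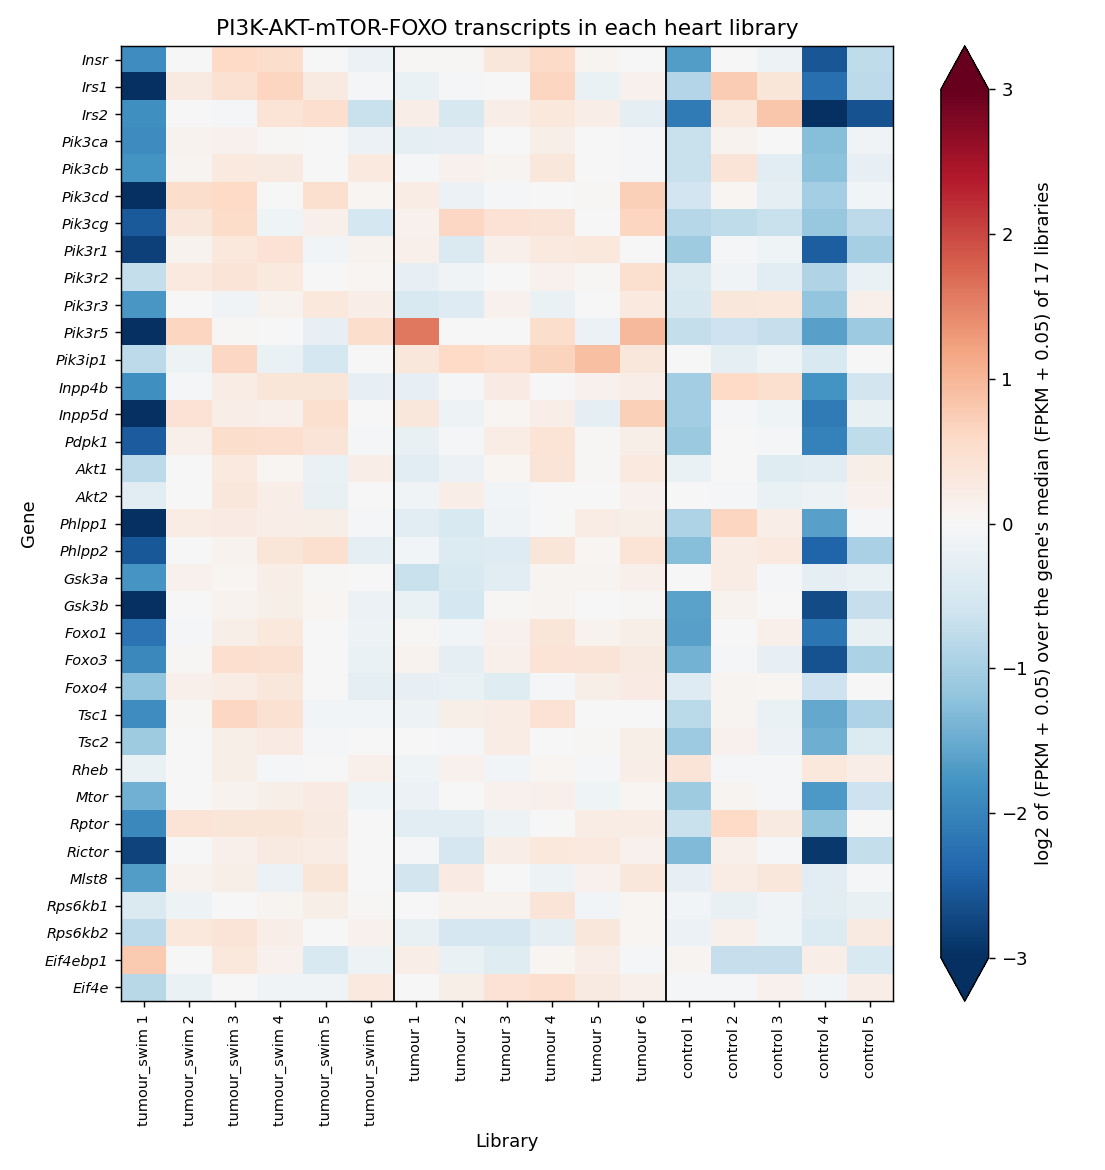
Level of each of the 35 transcripts (rows, ordered by role) in each of the 17 libraries (columns, by group), as the log2 ratio of FPKM + 0.05 to the median over all libraries. The columns of tumour_swim 1, control 1 and control 4 are blue for most rows, while the rows of Rheb and Akt2 vary little.

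Levels differed widely between genes. Akt1 had the highest mean over the 17 libraries, 45.2 FPKM, followed by Eif4ebp1 at 39.1 and Eif4e at 28.7 FPKM. Pik3r5, at 0.464 FPKM, and Pik3cg, at 0.567 FPKM, were the lowest, with a median of 39.0 and 87.0 reads per library. Rheb was the steadiest, its highest library being 1.51 times its lowest, and Irs2 had the widest ratio of the 34 transcripts with no library at 0, 26.9-fold over 17 libraries and 11.5-fold over 14.

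Tumour against control sets the pathway transcripts in hearts of mice with a transplanted tumour beside those in hearts of mice without one. With all 17 libraries, 2 of the 35 transcripts rose in tumour hearts, Pik3cg and Pik3ip1, and 0 fell, at an adjusted p under 0.05 in limma. Of all genes tested, 5.14% were higher and 3.33% lower (8.47% in either direction), so the share of members called was near the background. Pik3cg entered the test only through the groups where it is high, which favours a higher call, and it was not tested at a limit of a mean of 1 FPKM. At an unadjusted p under 0.05 there were 9 members, beside 3779 of all genes tested. With 14 libraries 3 rose, Pik3cg, Pik3ip1 and Eif4ebp1, and 0 fell, where 7.12% of genes were higher and 5.42% lower (12.5% in either direction). The member median log2 fold change was 0.33 with 17 libraries and 0.13 with 14, beside medians of 0.14 and 0.03 over all genes. Median-of-ratios scaling moved the all-gene median to -0.02 and the member median to 0.20, and it turned the split over all genes to 944 higher and 964 lower, in place of 704 and 457. Positive fold changes numbered 32 of 35 with 17 libraries, 24 with 14, 26 with median-of-ratios scaling, 28 with quantile scaling and 22 with the length trend removed. In 5 of the 35 genes, Pik3cg, Pik3r5, Pik3ip1, Rps6kb1 and Insr, every tumour heart lay above every control heart, as was so for 7.59% of all genes, and 0 lay below throughout, where 2.82% of genes did. With 14 libraries Eif4ebp1 joined them, beside 8.82% of genes higher and 6.21% lower. Among these genes, Pik3cg and Pik3r5 entered the test only through tumour-bearing groups, which favours such a separation.

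**Figure D2:**
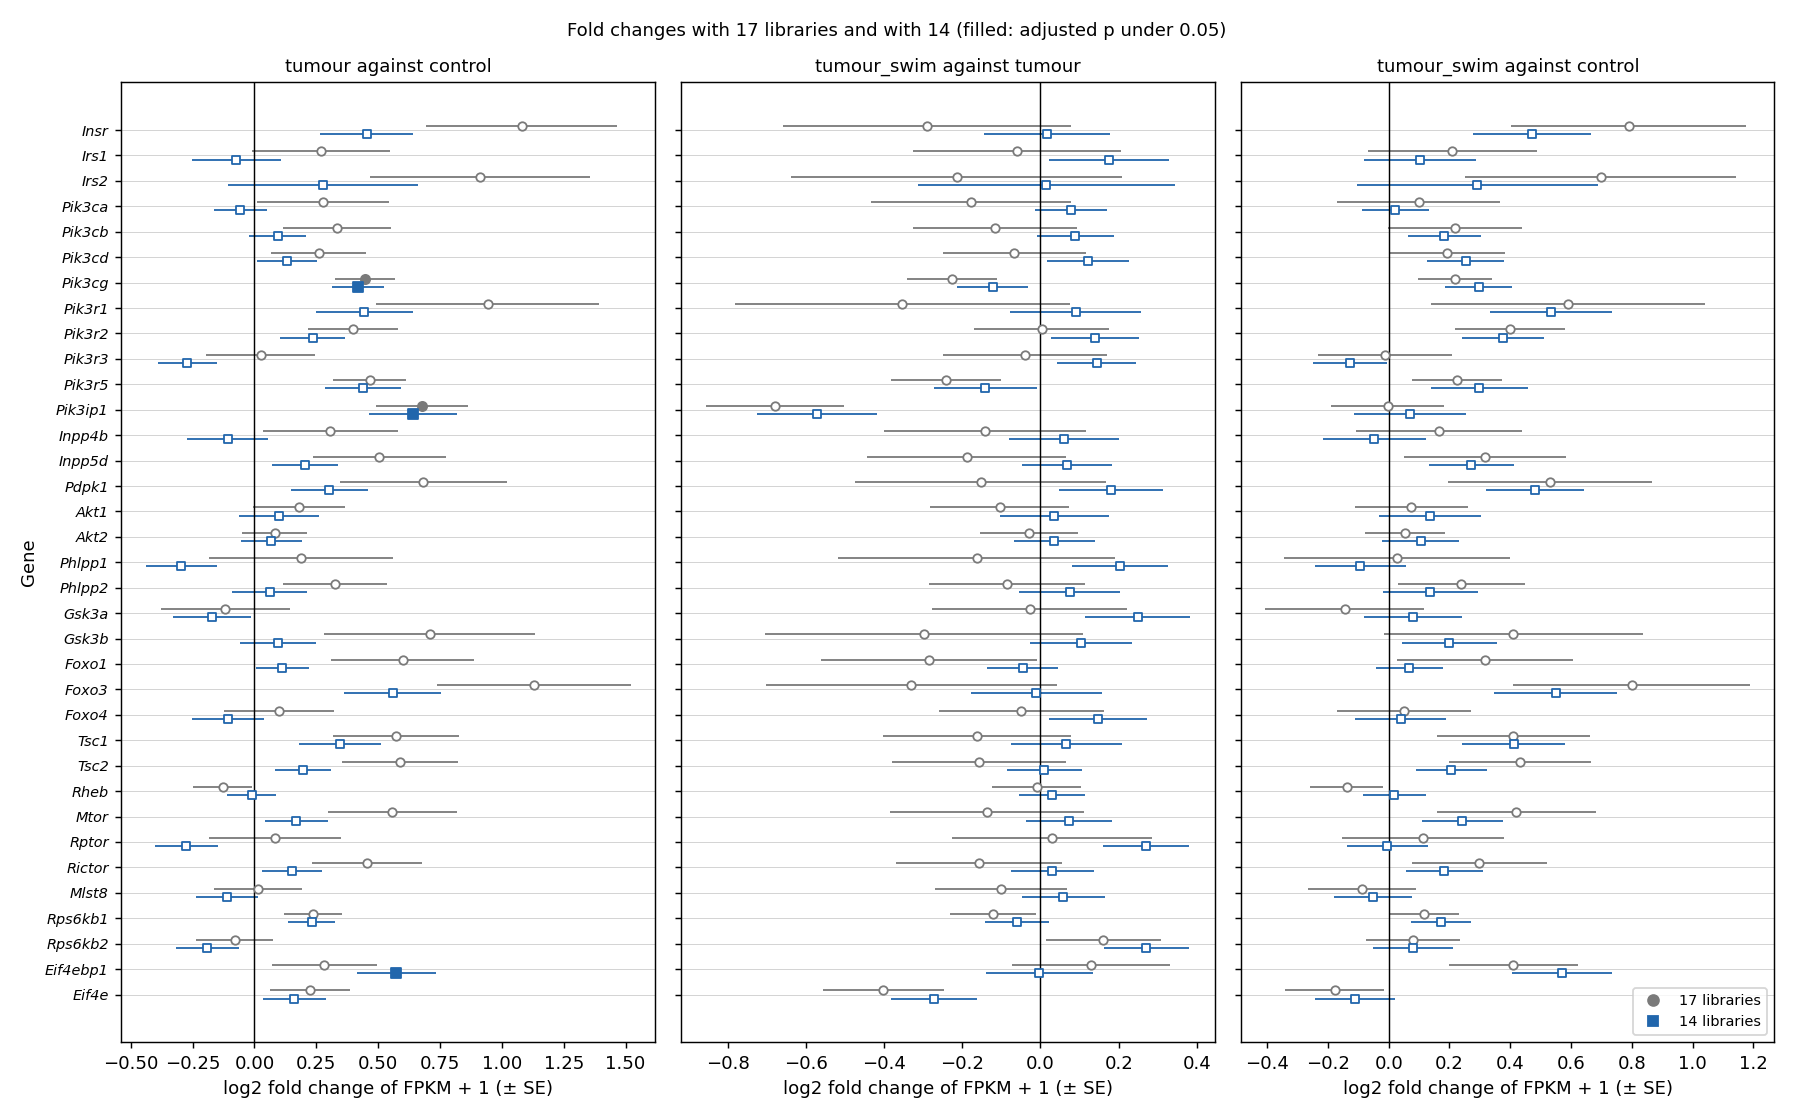
Log2 fold change of FPKM + 1 (x axis, with its standard error) of the 35 genes (y axis) in the 3 comparisons, with 17 libraries (grey circles) and with 14 (blue squares); filled symbols have a limma adjusted p under 0.05. Filled symbols appear for Pik3cg, Pik3ip1 and, with 14 libraries, Eif4ebp1 in tumour against control, and in neither of the other panels; without the 3 libraries the errors are shorter, Pik3r5 against control excepted, and most tumour-against-control values lie nearer to 0.

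Pik3cg and Pik3r5 belong to the same PI3-kinase. Pik3cg encodes p110-gamma, the catalytic subunit that answers to G-protein-coupled receptors and is abundant in leukocytes, and Pik3r5 encodes p101, its regulatory partner. The promoters of both are shown because these 2 genes encode subunits of 1 enzyme, and they were picked after their values were seen. All tumour hearts were above all controls for each, as also for Pik3ip1, Rps6kb1 and Insr. Both genes entered the test only through tumour-bearing groups, which favours such a separation. Every sequence is the 250 bases before the most upstream RefSeq transcription start (GRCm38.p6), 5′ to 3′ on the gene's strand, with CG dinucleotides in capitals. The positions are chr12:32208660-32208909 (minus strand) for Pik3cg and chr11:68431875-68432124 (plus strand) for Pik3r5.
Pik3cg: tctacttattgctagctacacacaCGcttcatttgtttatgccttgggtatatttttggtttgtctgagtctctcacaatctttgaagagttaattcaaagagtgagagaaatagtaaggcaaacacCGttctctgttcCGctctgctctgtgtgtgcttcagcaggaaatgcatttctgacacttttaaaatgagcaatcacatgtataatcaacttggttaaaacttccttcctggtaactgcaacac
Pik3r5: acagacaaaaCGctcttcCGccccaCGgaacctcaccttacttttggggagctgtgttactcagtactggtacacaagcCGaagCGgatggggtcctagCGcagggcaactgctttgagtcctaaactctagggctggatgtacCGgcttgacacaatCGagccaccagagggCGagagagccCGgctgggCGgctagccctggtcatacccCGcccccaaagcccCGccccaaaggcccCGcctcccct
The Pik3cg sequence has 3 CG dinucleotides and 38.8% G and C, and the Pik3r5 sequence has 14 and 61.6%. Over the same 250 bases of all windows in the RefSeq promoter table the medians were 6 and 52.4%, and over those of the set 15 and 57.6%.

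Pik3cg (chromosome 12, 32173473 to 32208659, minus strand) had 0.0623 to 0.889 FPKM with a median of 0.602 in tumour_swim hearts, 0.595 to 0.959 FPKM with a median of 0.804 in tumour hearts, and 0.307, 0.333, 0.357, 0.243 and 0.324 FPKM in control hearts 1 to 5. All 6 tumour hearts were above all 5 controls, and 5 of the 6 tumour_swim hearts were too, the exception being tumour_swim 1. The tumour mean was 0.792 ± 0.147 FPKM and the control mean 0.313 ± 0.0428 FPKM (SD, n = 6 and 5), which is 0.45 ± 0.12 as a log2 fold change (SE; limma adjusted p = 0.0312). With 14 libraries it was 0.42 ± 0.11 (adjusted p = 0.0187). Since these values are near the pseudocount of 1 FPKM, the fold change understates the ratio of the means. The call ended with the length trend removed (0.15, adjusted p = 0.491), with a pseudocount of 0.1 (1.10, adjusted p = 0.0728), without an expression limit (adjusted p = 0.0539), and on dropping a single library, be it control 1, 4 or 5 or tumour 2, 3, 4 or 6 (adjusted p = 0.0559 to 0.0801). In a bulk sample, more cells of a type and more RNA per cell cannot be told apart.

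Pik3r5 (chromosome 11, 68432121 to 68497849, plus strand) was listed at 0 in tumour_swim 1 and had up to 0.713 FPKM, with a median of 0.441, in tumour_swim hearts. Tumour hearts had 0.382 to 1.41 FPKM with a median of 0.544, and control hearts 1 to 5 had 0.248, 0.265, 0.253, 0.109 and 0.180 FPKM. Tumour hearts again lay above every control, tumour 1 being the highest by a wide margin. The log2 fold change of 0.47 ± 0.15 missed the threshold (SE; limma adjusted p = 0.0575), as did 0.44 ± 0.15 with 14 libraries (adjusted p = 0.0726). Pik3r5 entered the main fit only through its tumour mean, the group where it is highest, which favours a higher call. Under the same limit it passed when only the 2 groups compared were fitted (adjusted p = 0.0379), and without tumour 5 (0.0469) or tumour_swim 1 (0.0146). Removal of the length trend gave 0.25 (adjusted p = 0.28), and leaving out tumour 1 gave 0.36 (0.106).

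Markers of other cells were set beside these values. The counts of markers are to be read against 5.14% of all genes higher and 3.33% lower with 17 libraries, and 7.12% and 5.42% with 14. Of 12 pan-leukocyte markers, 3 were higher in tumour than in control hearts with 17 libraries (Ptprc, Vav1 and Itgb2) and 7 with 14. Their sums were 41.8 to 72.3 FPKM in tumour_swim, 46.6 to 102 FPKM in tumour and 34.4 to 78.6 FPKM in control hearts, and no marker of the list was at 0 in any library. The tumour and control sums did not differ past the threshold (exact two-sided permutation test, p = 0.0952, adjusted p = 0.232 over 39 such comparisons). Of 12 macrophage and monocyte markers 4 were higher with 17 libraries and 6 with 14. Their sums with 17 were 268 to 556, 366 to 800 and 234 to 488 FPKM in tumour_swim, tumour and control hearts. Neutrophil markers summed to 10.8 to 29.3, 24.1 to 61.5 and 2.80 to 6.25 FPKM in the same order, and 5 of the 6 that could be tested were higher, while Ly6g was at 0 in 16 of 17 libraries. S100a8, Retnlg and Mmp9 entered the test only through tumour-bearing groups, with control means of 0.339, 0.336 and 0.380 FPKM. So did Ptprc and Ccr2 of the lists above, with control means of 0.247 and 0.333 FPKM. Such entry favours a higher call. The neutrophil sum differed between tumour and control (exact permutation p = 0.00433, the smallest this design allows; adjusted p = 0.0338). Of 8 fibroblast markers 4 were higher with 17 and with 14 libraries (Dcn, Pdgfra, Lum and Tcf21), while their sum, at 347 to 761 FPKM in tumour and 233 to 360 FPKM in control hearts, missed the threshold (adjusted p = 0.0563). Red cell markers, with 3 of 5 tested higher, summed to a mean of 3880 FPKM in tumour and 1740 FPKM in control hearts (adjusted p = 0.0338). The skeletal muscle list summed to 397 and 572 FPKM (adjusted p = 0.0338), nearly all from Ckm, which was lower. Myh1, Myh2, Tnnt3 and Actn3 reached at most 0.016, 0.021, 0.429 and 0.146 FPKM. That sum thus gives the level of Ckm and does not show skeletal muscle cells. The part of leukocytes and other cells in the Pik3cg and Pik3r5 values was not tested.

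Pik3ip1 was the most abundant of the 2 transcripts called with all libraries. It encodes a transmembrane protein that binds the p110 catalytic subunits and inhibits PI3-kinase (chromosome 11, 3330401 to 3342971, plus strand). Levels were 6.51 to 17.1 FPKM with a median of 9.89 in tumour_swim hearts, 14.1 to 20.9 FPKM with a median of 16.5 in tumour hearts, and 11.2, 9.26, 10.3, 8.12 and 11.2 FPKM in control hearts 1 to 5. Tumour hearts formed a block of their own above the controls, and 5 of 6 tumour_swim hearts fell within or below the control range, with only tumour_swim 3 among the tumour values. The tumour mean was 16.6 ± 2.55 FPKM and the control mean 10.01 ± 1.32 FPKM (SD, n = 6 and 5), or 0.68 ± 0.19 as a log2 fold change (SE; limma adjusted p = 0.0324), and 0.64 ± 0.18 with 14 libraries (adjusted p = 0.0290). Its range among the 3 libraries that stood apart was small, 0.65 to 1.09 times the level in the rest of their groups. The call ended with median-of-ratios scaling (0.48, adjusted p = 0.0602), with no expression limit (0.0539) and with a replicate block in the fit. It also ended on dropping control 1 or 4 or tumour 2, 3, 4 or 5 (0.0568 to 0.0924), but held with the length trend removed (0.53, adjusted p = 0.022).

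**Figure D3:**
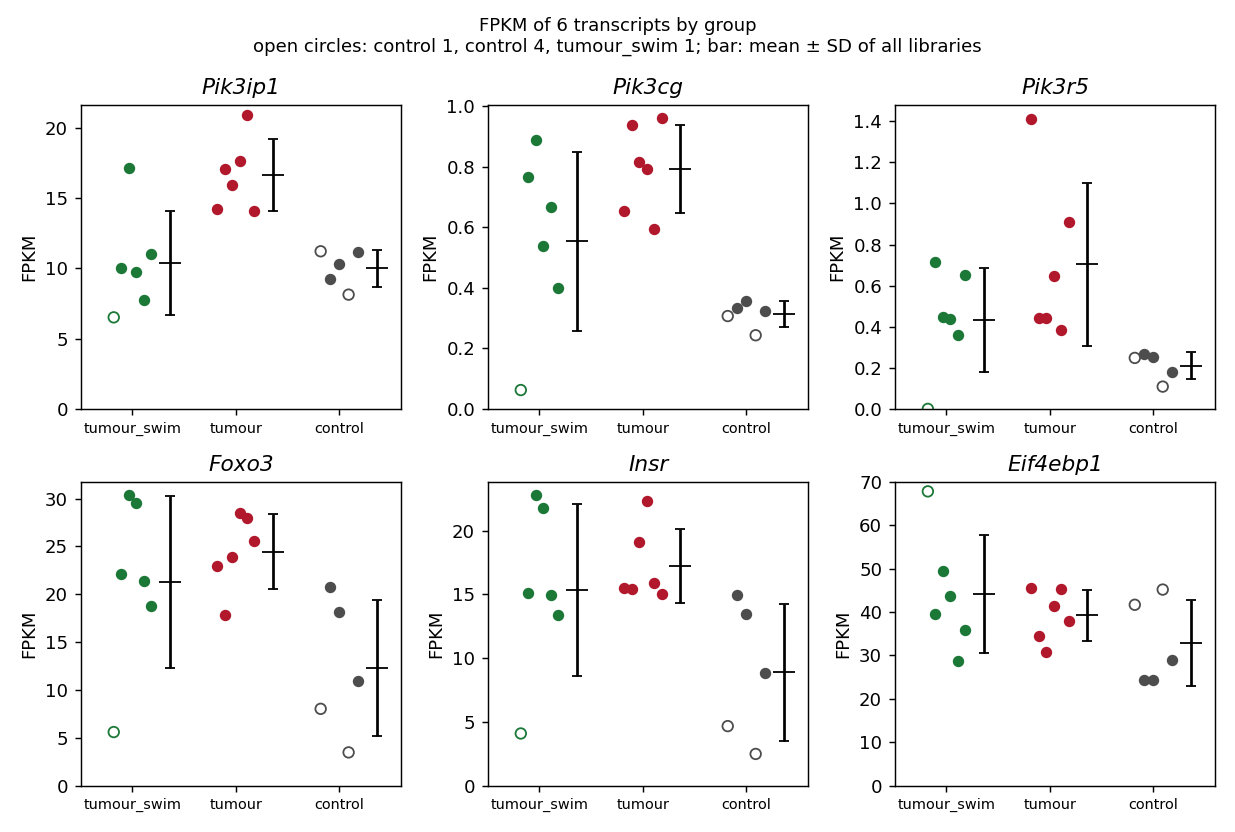
FPKM (y axis, from 0) of 6 transcripts in each heart, by group, with mean ± SD beside the points (n = 6, 6 and 5); open circles are tumour_swim 1, control 1 and control 4. Tumour hearts lie above all controls for Pik3ip1, Pik3cg, Pik3r5 and, by a narrow margin, Insr, while Foxo3 overlaps and the open circles are the extreme points for Foxo3, Insr and Eif4ebp1.

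At the head of the pathway, the receptor and its docking proteins were low in the libraries that stood apart, as most of the set was. Insr, the insulin receptor (chromosome 8, 3122061 to 3279617, minus strand), had 4.09 to 22.8 FPKM with a median of 15.1 in tumour_swim hearts, 15.1 to 22.3 FPKM with a median of 15.7 in tumour hearts, and 4.67, 14.9, 13.5, 2.49 and 8.87 FPKM in control hearts 1 to 5. The groups did not overlap, but control 2 was just under the lowest tumour heart. The log2 fold change was 1.08 ± 0.39 (SE; limma adjusted p = 0.0873) with 17 libraries and 0.45 ± 0.19 (adjusted p = 0.124) with 14. It passed with median-of-ratios (0.90, adjusted p = 0.0418) and quantile scaling (0.96, 0.0360), with only the groups compared (0.0458), with the length trend removed (0.69, 0.0240), and without control 2 (1.31, 0.0429) or tumour_swim 1 (0.0178).

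Irs2, which docks PI3-kinase to the insulin and IGF1 receptors, had 1.38 to 7.16 FPKM with a median of 4.91 in tumour_swim, 3.58 to 6.23 FPKM with a median of 5.76 in tumour, and 1.12, 6.26, 8.98, 0.334 and 0.778 FPKM in control hearts 1 to 5. Controls split into 2 hearts at or above the tumour range and 3 below it, and control 5, which is not among the libraries that stood apart, was one of the low ones. Irs1, its paralogue, averaged 1.67 ± 0.829 FPKM in tumour_swim, 1.65 ± 0.420 FPKM in tumour and 1.34 ± 0.987 FPKM in control hearts (SD). Neither passed the test with 17 or 14 libraries, and all groups overlapped; Irs2 passed without control 3 (1.32, adjusted p = 0.0462).

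The class IA enzymes answer to receptor tyrosine kinases. Their catalytic subunits were led by Pik3ca (p110-alpha, the main insulin-responsive form), at 7.06 ± 2.50 FPKM in tumour_swim, 7.59 ± 0.949 FPKM in tumour and 6.37 ± 2.23 FPKM in control hearts. Pik3cb (p110-beta) averaged 2.71 ± 0.997, 2.86 ± 0.299 and 2.15 ± 0.898 FPKM in the same order. Pik3cd (p110-delta, enriched in leukocytes) averaged 1.202 ± 0.595, 1.23 ± 0.322 and 0.863 ± 0.250 FPKM. None of these 3 passed the tumour-against-control test, with adjusted p of 0.316 to 0.493 over 17 libraries and 0.521 to 0.766 over 14.

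Among the regulatory subunits, which hold p110 at the membrane, Pik3r1 (p85-alpha) was the most abundant. It averaged 21.8 ± 9.70 FPKM in tumour_swim, 24.05 ± 4.19 FPKM in tumour and 13.7 ± 7.46 FPKM in control hearts. Control 1, control 4 and control 5 had 10.7, 4.0 and 11.2 FPKM. Pik3r2 (p85-beta) averaged 9.74 ± 2.33, 9.58 ± 1.77 and 7.06 ± 1.41 FPKM, and Pik3r3 (p55-gamma) 2.28 ± 0.832, 2.28 ± 0.475 and 2.30 ± 0.895 FPKM in the same order. Neither Pik3r1 (adjusted p = 0.182 with 17 libraries, 0.148 with 14) nor Pik3r2 (0.167 and 0.256) passed, and Pik3r3 had a fold change of 0.03 with 17 libraries and -0.27 with 14.

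The phosphatases that act on PIP3 and its product were low. Inpp5d encodes SHIP1, a 5-phosphatase of blood cells, and averaged 2.01 ± 0.957 FPKM in tumour_swim, 2.26 ± 0.602 FPKM in tumour and 1.35 ± 0.643 FPKM in control hearts. Inpp4b encodes a 4-phosphatase that works one step later, and averaged 2.62 ± 1.05, 2.82 ± 0.347 and 2.35 ± 1.51 FPKM. Without the 3 libraries the Inpp5d controls were at 1.68 to 1.89 FPKM and tumour hearts at 1.61 to 3.28 FPKM, and the groups overlapped. Neither gene passed with 17 or 14 libraries.

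No AKT transcript passed the test. Akt1 averaged 45.1 ± 10.7 FPKM in tumour_swim, 47.9 ± 8.99 FPKM in tumour and 42.0 ± 6.76 FPKM in control hearts. Akt2, the isoform most linked to glucose uptake, averaged 24.2 ± 4.30, 24.5 ± 2.05 and 23.1 ± 2.08 FPKM in the same order. Their adjusted p in tumour against control was 0.522 and 0.685 with 17 libraries and 0.732 and 0.752 with 14. Pdpk1, which encodes PDK1, the kinase of the AKT activation loop, averaged 5.55 ± 2.48, 5.61 ± 0.858 and 3.38 ± 1.72 FPKM and did not pass (0.194 with 17 libraries, 0.217 with 14).

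PHLPP phosphatases switch AKT off, and GSK3 kinases are among its targets. Phlpp1 averaged 5.02 ± 2.26 FPKM in tumour_swim, 5.07 ± 0.942 FPKM in tumour and 4.78 ± 2.62 FPKM in control hearts, and Phlpp2 1.08 ± 0.516, 1.15 ± 0.295 and 0.771 ± 0.546 FPKM. For Phlpp1 the fold change was 0.19 with 17 libraries and -0.30 with 14, so that its sign rested on the 3 libraries. Gsk3a averaged 14.2 ± 4.84, 13.7 ± 3.09 and 14.7 ± 2.04 FPKM, and Gsk3b 7.51 ± 3.35, 8.20 ± 1.21 and 5.46 ± 3.50 FPKM. All 4 missed the threshold in both fits. Of the Gsk3a exons 28.3% overlap a gene on the other strand, and the strandedness of the libraries is not given in the sources used here, so part of its reads may belong to that gene.

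Foxo3 had the highest tumour-against-control fold change of the 35 with 17 libraries, without passing the test. FOXO factors drive genes of protein breakdown, autophagy and cell survival when AKT activity is low. Foxo3 (chromosome 10, 42181841 to 42276755, minus strand) had 5.60 to 30.4 FPKM with a median of 21.7 in tumour_swim hearts, 17.9 to 28.5 FPKM with a median of 24.8 in tumour hearts, and 8.03, 20.7, 18.2, 3.48 and 10.98 FPKM in control hearts 1 to 5. Control 2 and control 3 reached into the tumour range, and control 1 and control 4 were the lowest of the group. The log2 fold change was 1.13 ± 0.39 (SE; limma adjusted p = 0.0779) with 17 libraries and 0.56 ± 0.20 (adjusted p = 0.0740) with 14. Median-of-ratios scaling (0.94, adjusted p = 0.0321), quantile scaling (1.05, 0.0289), library weights (0.80, 0.0423), removal of the length trend (0.85, 0.0180), the fit of only the groups compared (0.0385) and leaving out control 2 (1.36, 0.0378) or tumour_swim 1 (0.0134) each made it pass.

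The other FOXO genes did less. Foxo1 averaged 3.14 ± 1.27 FPKM in tumour_swim, 3.76 ± 0.386 FPKM in tumour and 2.40 ± 1.41 FPKM in control hearts. Its control values of 1.08 and 0.716 FPKM were those of control 1 and control 4, and the other 3 controls had 2.96 to 3.81 FPKM. Foxo4 averaged 18.5 ± 5.77, 18.5 ± 3.19 and 17.3 ± 3.52 FPKM. Neither passed (adjusted p = 0.186 and 0.777 with 17 libraries, 0.521 and 0.669 with 14).

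In the mTOR branch upstream of translation, the brake came closest to the threshold with 17 libraries. Tsc2, which encodes tuberin, the GTPase-activating member of the TSC complex, had 5.14 to 12.7 FPKM with a median of 10.8 in tumour_swim, 10.3 to 12.6 FPKM with a median of 10.9 in tumour, and 5.05, 11.8, 9.55, 3.85 and 8.06 FPKM in control hearts 1 to 5. Control 2 alone reached the tumour range. Its log2 fold change was 0.59 ± 0.23 (SE; limma adjusted p = 0.119), and 0.20 ± 0.11 with 14 libraries (adjusted p = 0.267). It passed with quantile scaling (0.46, adjusted p = 0.0461), without control 2 (0.75, 0.0457) and without tumour_swim 1 (0.0312), while removal of the length trend gave 0.26 (0.0728).

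Tsc1, which encodes hamartin and stabilizes tuberin, had 0.906 to 5.32 FPKM with a median of 3.38 in tumour_swim, 3.07 to 4.67 FPKM with a median of 3.65 in tumour, and 1.92, 3.60, 2.99, 1.14 and 1.79 FPKM in control hearts 1 to 5. As for Tsc2, control 2 was the only control within the tumour range. Tsc1 had a fold change (log2) of 0.57 ± 0.25 (SE; limma adjusted p = 0.154), and 0.34 ± 0.17 (0.187) with 14 libraries, and it passed with only the groups compared (0.0496) and without tumour_swim 1 (0.0245), while removal of the length trend gave 0.21 (0.214). Rheb, the GTPase that the complex restrains, averaged 10.8 ± 1.03 FPKM in tumour_swim, 10.9 ± 0.998 FPKM in tumour and 12.03 ± 1.70 FPKM in control hearts. It had the lowest fold change of the 35, -0.13, which was -0.01 with 14 libraries.

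Mtor, the kinase of both complexes, averaged 6.73 ± 2.15 FPKM in tumour_swim, 7.14 ± 0.662 FPKM in tumour and 4.90 ± 2.30 FPKM in control hearts. Rptor, the scaffold of complex 1, averaged 3.40 ± 1.33, 3.09 ± 0.539 and 3.04 ± 1.41 FPKM. Rictor, its counterpart in complex 2, averaged 1.31 ± 0.577, 1.504 ± 0.298 and 0.891 ± 0.587 FPKM. Mlst8, a subunit of both, averaged 1.79 ± 0.656, 1.94 ± 0.411 and 1.90 ± 0.403 FPKM. Mtor, Rptor, Rictor and Mlst8 all missed the threshold (adjusted p = 0.174 to 0.966 with 17 libraries, 0.176 to 0.606 with 14). Rptor had a fold change of 0.08 with 17 libraries and -0.27 with 14, and it was the only member called lower under any alternative, with the length trend removed (-0.30, adjusted p = 0.019); it is named here after its values were seen.

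The outputs of mTOR complex 1 on translation gave the third call. Eif4ebp1 encodes 4E-BP1, which binds the cap-binding protein eIF4E and blocks translation until mTOR phosphorylates it (chromosome 8, 27260329 to 27276674, plus strand). It had 28.6 to 67.8 FPKM with a median of 41.6 in tumour_swim hearts, 30.9 to 45.6 FPKM with a median of 39.6 in tumour hearts, and 41.7, 24.4, 24.3, 45.2 and 28.9 FPKM in control hearts 1 to 5. With all libraries the groups overlapped, and the 2 high controls were control 1 and control 4. Without these, the 3 controls were all below the lowest tumour heart. The log2 fold change was 0.28 ± 0.21 (SE; limma adjusted p = 0.376) with 17 libraries and 0.57 ± 0.16 (adjusted p = 0.0286) with 14, and this call appeared with the 3 libraries left out together and under no other alternative. With median-of-ratios scaling of all 17 libraries it was 0.07 (adjusted p = 0.894).

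Eif4e itself averaged 25.1 ± 5.87 FPKM in tumour_swim, 32.9 ± 4.33 FPKM in tumour and 27.9 ± 2.54 FPKM in control hearts. Rps6kb1, the S6 kinase that mTOR complex 1 activates, had 3.25 to 4.97 FPKM with a median of 4.46 in tumour_swim, 4.19 to 5.75 FPKM with a median of 4.65 in tumour, and 4.13, 3.78, 4.08, 3.54 and 3.76 FPKM in control hearts 1 to 5. Every tumour heart was above every control for Rps6kb1, though the lowest tumour heart and the highest control were close together, and the test did not pass (limma adjusted p = 0.191 with 17 libraries, 0.120 with 14). Rps6kb2, the second S6 kinase, averaged 2.43 ± 0.603, 2.05 ± 0.510 and 2.21 ± 0.424 FPKM in tumour_swim, tumour and control hearts.

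Tumour_swim against tumour asks what swimming changed in tumour-bearing mice. This comparison uses the same tumour hearts as the one with controls, so values are set side by side and not correlated. With 17 libraries, 0 of the 35 transcripts passed limma's test, beside 0.0% of all 13709 genes (0 genes), and 2 members and 554 genes had an unadjusted p under 0.05. With 14 libraries 0 members and 1 gene passed (0.00725% of genes), with 4 members and 1337 genes at an unadjusted p under 0.05. Fold changes were negative for 31 of 35 members with 17 libraries and positive for 27 of 35 in the fit of 14, with member medians of -0.14 and 0.07 beside -0.08 and 0.04 over all genes. With all 17 libraries the number of positive members also depended on scaling, at 10 with median-of-ratios scaling, 8 with quantile scaling and 16 with the length trend removed. For 0 members were the tumour_swim and tumour hearts fully apart, as they were for 0.146% of genes in the higher and 0.226% in the lower direction (0.848% and 0.29% with 14 libraries).

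Pik3ip1 had the smallest p of the members here. Its tumour_swim mean was 10.4 ± 3.69 FPKM and its tumour mean 16.6 ± 2.55 FPKM (SD, n = 6 each), or -0.68 ± 0.18 on the log2 scale (SE; limma adjusted p = 0.957, unadjusted 0.00119), and -0.57 ± 0.15 with 14 libraries (adjusted p = 0.291, unadjusted 0.00187). Lower values were seen in 5 of 6 tumour_swim hearts than in any tumour heart.

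Eif4e, the cap-binding protein, had 15.3 to 33.4 FPKM with a median of 25.5 in tumour_swim hearts and 27.3 to 38.8 FPKM with a median of 32.0 in tumour hearts. All but tumour_swim 6 were below the lowest tumour heart, tumour 1, with tumour_swim 3 just under it. The log2 fold change was -0.40 ± 0.15 (SE; limma adjusted p = 0.957, unadjusted 0.0179), and -0.27 ± 0.11 (adjusted p = 0.432) with 14 libraries. Rps6kb2 had 1.31 to 2.98 FPKM with a median of 2.57 in tumour_swim and 1.59 to 2.91 FPKM with a median of 1.91 in tumour hearts, or 0.16 ± 0.15 on the log2 scale (adjusted p = 0.957), and 0.27 ± 0.11 (0.433) with 14. The groups overlapped for Rps6kb2 with all libraries and without the 3.

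The group means of the PI3-kinase-gamma pair in tumour_swim hearts lay between those of tumour and control hearts. Pik3cg averaged 0.553 ± 0.295 FPKM in tumour_swim and 0.792 ± 0.147 FPKM in tumour hearts, or -0.23 ± 0.12 on the log2 scale (SE; limma adjusted p = 0.957), and -0.12 ± 0.09 (0.671) with 14 libraries. Pik3r5 averaged 0.434 ± 0.253 and 0.705 ± 0.397 FPKM, with -0.24 ± 0.14 (0.957) and, with 14 libraries, -0.14 ± 0.13 (0.743). Rps6kb1 had -0.12 ± 0.11 (0.957), and -0.06 ± 0.08 (0.837) with 14. Foxo1 had -0.28 ± 0.28 (0.957) and Foxo3 -0.33 ± 0.37 (0.957), which came to -0.05 ± 0.09 (0.900) and -0.01 ± 0.17 (0.9904) with 14. A p that misses the threshold does not show that the groups are alike: for Foxo3 the standard error alone covers differences in either direction.

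Tumour_swim against control asks what remained of the difference from healthy hearts in tumour-bearing mice that swam. It shares its controls with the first comparison and its tumour_swim hearts with the second. With 17 libraries 0 members passed, where 0.554% of genes were higher and 0.35% lower (0.905% in all), and 1 member and 1694 genes had an unadjusted p under 0.05. With 14 libraries 0 members passed as well, beside 1.9% and 0.652% of genes (2.55% in all), and 8 members and 2522 genes had an unadjusted p under 0.05. In that fit the groups did not overlap for 4 members, Pik3cg, Pik3r2, Pik3r5 and Inpp5d, all higher in tumour_swim hearts, as was so for 10.4% of all genes (3.14% lower). Pik3cg and Pik3r5 entered that fit only through tumour-bearing groups, with control means of 0.338 and 0.233 FPKM. Such entry favours a separation in the higher direction. With 17 libraries the groups were apart for 0 members, beside 0.715% of genes higher and 0.868% lower. Member medians were 0.22 with 17 and 0.17 with 14 libraries, beside 0.06 and 0.07 over all genes.

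Pik3r2 had the smallest p with 17 libraries. Levels were 5.53 to 11.9 FPKM with a median of 10.3 in tumour_swim hearts and 6.74, 8.55, 7.29, 4.85 and 7.88 FPKM in control hearts 1 to 5. Every tumour_swim heart except tumour_swim 1 was above every control. Its fold change (log2) was 0.40 ± 0.18 (SE; limma adjusted p = 0.379), and 0.38 ± 0.14 (0.151) with 14 libraries, and it passed with the length trend removed (0.34, adjusted p = 0.0457).

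Eif4ebp1 had the smallest p with 14 libraries. Its means were 44.1 ± 13.5 FPKM in tumour_swim and 32.9 ± 9.87 FPKM in control hearts (SD, n = 6 and 5), or 0.41 ± 0.21 on the log2 scale (SE; limma adjusted p = 0.453), and without the 3 libraries 39.4 ± 7.82 and 25.9 ± 2.65 FPKM, with 0.57 ± 0.16 (adjusted p = 0.0799). The receptor Insr had 0.79 ± 0.39 (0.420), and 0.47 ± 0.19 (0.210) with 14. Foxo3 had 0.80 ± 0.39 (0.419), and 0.55 ± 0.20 (0.161). Pik3cg had 0.22 ± 0.12 (0.490), and 0.30 ± 0.11 (0.161), while the brake genes Tsc2 and Tsc1 had 0.43 ± 0.23 (0.481) and 0.41 ± 0.25 (0.537), and 0.21 ± 0.12 (0.359) and 0.41 ± 0.17 (0.214) with 14. Mtor, with 2.57 to 8.48 FPKM (median 7.40) in tumour_swim hearts and 3.38, 7.53, 6.90, 2.10 and 4.57 FPKM in control hearts 1 to 5, had 0.42 ± 0.26 (0.538), and 0.24 ± 0.13 (0.344).

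The number of members called moved with single libraries, most of all with tumour_swim 1. With tumour_swim 1 left out and the other 16 kept, 12 members rose in tumour against control hearts (Pik3cg, Pik3r1, Pik3r2, Pik3r5, Pik3ip1, Pdpk1, Mtor, Tsc1, Tsc2, Foxo3, Insr and Inpp5d), beside 19.2% of all genes higher and 7.43% lower. In that fit 11 rose in tumour_swim against control, beside 13.4% of genes higher and 2.65% lower: Pik3cd with 10 of the same 12, the exceptions being Pik3r5 and Pik3ip1. Control 1 and control 4 stayed in that fit, and with these also left out the counts were 3 and 0.

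Exon length and fold change were set side by side with and without the 3 libraries. Across the 35 members the Spearman correlation between exon length and log2 fold change was 0.46 with 17 libraries and 0.09 with 14 in tumour against control. It was -0.31 and 0.02 in tumour_swim against tumour, and 0.49 and 0.17 in tumour_swim against control. These are descriptions across genes of 1 pathway that share libraries. Rictor, at 16930 exonic bases the longest, had 0.104 times the level of the rest of its group in tumour_swim 1 and 0.106 times in control 4.

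**Figure D4:**
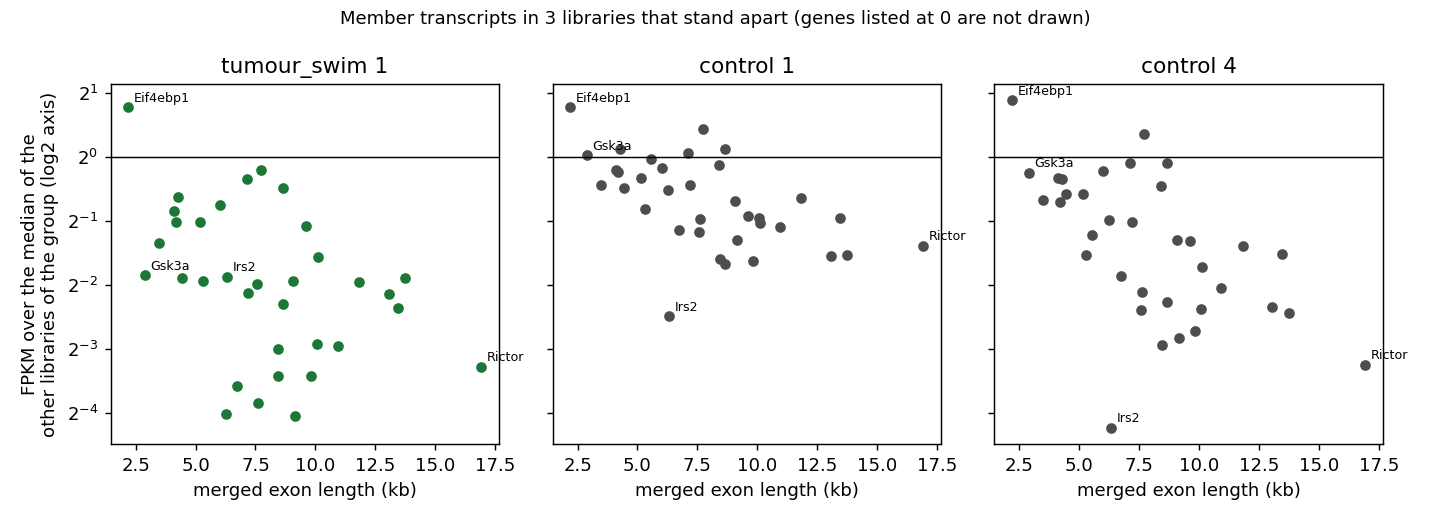
Level of each member in tumour_swim 1, control 1 and control 4 relative to the median of the other libraries of its group (y axis, log2 scale) against merged exon length (x axis, kilobases); the line marks an equal level. The short Eif4ebp1 is at 1.71, 1.71 and 1.85 times the level of the rest of its group in these libraries and the long Rictor is far below the line in each, and Pik3r5 is not drawn in tumour_swim 1, where it is listed at 0.

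Beyond the 35, genes with known places in the pathway were counted in 6 lists, to be read against the 5.14% of all genes higher and 3.33% lower with 17 libraries, and 7.12% and 5.42% with 14. Of 20 tested genes for other PI3-kinases, adaptors and lipid phosphatases (24 listed), 2 rose in tumour against control hearts and 0 fell. Pik3ap1, the adaptor BCAP of B cells and macrophages, had 1.53 ± 0.560 FPKM in tumour and 0.545 ± 0.192 FPKM in control hearts (log2 fold change 0.70 ± 0.19, limma adjusted p = 0.0294). Inpp5k, a 5-phosphatase of muscle also called SKIP, had 9.26 ± 0.650 and 5.95 ± 1.00 FPKM (0.57 ± 0.16, 0.0374). The list median was 0.30 beside 0.14 over all genes, and 0.04 beside 0.03 with 14 libraries, where 3 rose and 0 fell.

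Among 18 tested AKT modulators and related kinases (21 listed), 1 rose and 0 fell with 17 libraries, and with 14 libraries 1 of 19 rose and 3 fell (Hsp90aa1, Phlda1 and Ppp2r5b). Fkbp5, a glucocorticoid-induced scaffold that brings the phosphatase PHLPP to AKT, averaged 11.6 ± 2.62 FPKM in tumour and 3.80 ± 1.53 FPKM in control hearts (1.43 ± 0.28, limma adjusted p = 0.00522). It averaged 9.27 ± 3.45 FPKM in tumour_swim hearts, 1.08 ± 0.28 above control (adjusted p = 0.0772 with 17 libraries, 0.0107 with 14). The list median was -0.15 beside 0.14 over all genes. Of 15 AKT substrates outside the set 0 rose or fell with 17 libraries, and 2 fell with 14, Ywhah and Mdm2. Casp9, a caspase that AKT inhibits, had the smallest p of that list, with 2.53 ± 0.366 FPKM in tumour and 1.59 ± 0.346 FPKM in control hearts (0.45 ± 0.17, adjusted p = 0.110).

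Of 38 tested mTOR complex partners and nutrient sensors (39 listed), 2 rose and 1 fell. Slc3a2, the heavy chain of amino acid exchangers, had 18.6 ± 3.52 FPKM in tumour and 8.71 ± 1.81 FPKM in control hearts (1.02 ± 0.23, limma adjusted p = 0.0121). Tti2, a chaperone cofactor of mTOR, had 1.33 ± 0.10 and 0.856 ± 0.209 FPKM (0.33 ± 0.10, 0.0422). Lamtor1, the lysosomal anchor of the Ragulator complex, had 21.97 ± 1.26 and 31.8 ± 7.45 FPKM (-0.49 ± 0.14, 0.0413). With 14 libraries 2 rose (Slc3a2 and Sesn1) and 1 fell (Castor2).

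Translation and autophagy effectors of mTOR complex 1 gave 4 rises and 0 falls among 22 tested (24 listed), with 17 and with 14 libraries: Eef2k, Eif4b, Eef2 and Pdcd4. Eef2k, the kinase that inhibits elongation factor 2 and is itself restrained by the mTOR branch, had 9.14 ± 1.44 FPKM in tumour and 4.75 ± 0.849 FPKM in control hearts (0.82 ± 0.18, limma adjusted p = 0.0103). In tumour_swim hearts it had 9.10 ± 2.25 FPKM and was the one pathway-list gene called against control with 17 libraries (0.79 ± 0.18, adjusted p = 0.0397). Of all genes tested, 0.905% were called in that comparison. Eif4b, a cofactor of the cap-binding helicase, had 65.0 ± 6.48 and 41.0 ± 6.46 FPKM in tumour and control hearts (0.66 ± 0.16, 0.0198), and Eef2, the elongation factor, 646 ± 59.4 and 470.3 ± 55.5 FPKM (0.46 ± 0.13, 0.0324). The list median was 0.36 with 17 libraries and 0.05 with 14.

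FOXO target genes had 5 rises and 0 falls among 31 tested (33 listed), and 7 rises and 1 fall with 14 libraries. Txnip, a thioredoxin-binding arrestin that limits glucose uptake, had 231 ± 37.1 FPKM in tumour and 109 ± 30.3 FPKM in control hearts (1.11 ± 0.25, limma adjusted p = 0.0116). Bcl2l11, the pro-apoptotic BIM, had 3.22 ± 0.658 and 1.24 ± 0.625 FPKM (0.95 ± 0.22, 0.0137). Klf15, a glucocorticoid-induced regulator of cardiac metabolism, had 29.1 ± 5.03 and 18.4 ± 2.19 FPKM (0.63 ± 0.17, 0.0314). The list median was 0.30 beside 0.14 over all genes with 17 libraries, and 0.12 beside 0.03 with 14. In tumour_swim against tumour no gene of any of the 6 lists passed, where 0 of 13709 genes passed with 17 libraries and 1 of 13797 with 14. Txnip, with 138 ± 59.1 FPKM in tumour_swim hearts, had the smallest p of its list there (-0.81 ± 0.24, limma adjusted p = 0.957, and 0.324 with 14 libraries).

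RefSeq promoter windows were found for 31 of the 35 members, 43 windows of 300 bases that run from 250 bases before to 50 after a transcription start. The FOXO binding motif GTAAACA, searched on both strands (TGTTTAC on the other), was present in windows of 2 members, Pik3cg and Akt1. Of all genes with a window 4.05% held it. The Pik3cg match lies in a window of another of its starts and is not in the sequence shown. A match is a string of letters and not a binding site.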

How the data were processed

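Heart RNA was profiled by sequencing in 17 libraries. Per the labels' protocols, TRIzol yielded the total RNA and a NEBNext Ultra kit the libraries. Build mm10 and the tools fastp, FastQC and bcl2fastq appear in the submitters' processing notes without role or version; aligner, counting method, annotation and strandedness are not given in the sources used. The deposited values, made by the authors, are FPKM; the unit was inferred from the values, which sum to 99.0% to 99.7% of the expected total when multiplied by GENCODE M21 exon length (28260 of 28640 IDs matched). Library depth came from the spacing of low values, of which 98.6% to 99.0% were within 0.1 of a whole number of reads. Chi-square per degree of freedom was at least 11.5 in each of 40 same-group pairs of libraries, so no pair agreed within sampling noise.

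The members and gene lists were chosen with earlier results of these data known. R 4.3.3 with limma 3.58.1 gave two-sided limma-trend tests (14 residual degrees of freedom) on log2(FPKM + 1) for 13709 genes whose mean reached 0.5 FPKM in some group, with all groups in 1 fit and Benjamini-Hochberg adjustment over all of these genes within each comparison, at 0.05. A fit without control 1, control 4 and tumour_swim 1 tested 13797 genes. On simulated data with changes planted in these libraries the fit was tested before use. Fold changes with errors are printed for the members past the threshold with 17 or 14 libraries, filled up to 8 per comparison by smallest p, and for up to 3 genes per pathway list. Other members are given by their levels; a few are named after their values were seen. Marker sums were compared by exact permutation tests, adjusted over 39 comparisons. Positions are those of GENCODE M21 on GRCm38. Python 3.11.15, numpy 2.4.6, pandas 2.3.3, scipy 1.17.1 and matplotlib 3.10.9 were used. Alternatives covered scaling, pseudocount, expression limit, threshold, samples in the fit, library weights, the length trend, a replicate block and leaving out each library.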

Additional observations from a re-analysis of the deposited data

Results flagged for a closer look

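Of 105 sets of values (35 transcripts in 3 groups), 18 held a library whose gap to its nearest neighbour was a greater part of the group's range than Dixon's critical value (0.71 for 5 libraries, 0.625 for 6); chance flags about 1 group in 20. In 15 of the 18 the library was tumour_swim 1, each time the lowest of its group. For the PI3-kinase subunits it had 2.11 FPKM of Pik3ca, 0.75 of Pik3cb, 0.0958 of Pik3cd, 3.16 of Pik3r1 and 0.679 of Pik3r3. At the level of PDK1, the AKT phosphatase, GSK3 and FOXO it had 0.87 FPKM of Pdpk1, 0.511 of Phlpp1, 4.42 of Gsk3a, 0.839 of Gsk3b and 0.701 of Foxo1. In the mTOR branch it had 2.57 FPKM of Mtor, 0.164 of Rictor, 0.801 of Rptor and 5.14 of Tsc2, and it had 0.158 FPKM of Inpp5d. Tumour 4 was the highest of the tumour hearts for Rps6kb1, at 5.75 FPKM, and for Irs1, at 2.46 FPKM. Tumour 6 was the highest for Pik3cd, at 1.85 FPKM.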

How the results depend on the processing

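In tumour against control, the count of members higher, 2 with 17 libraries, was 5 with quantile scaling, 6 with only the groups compared, 5 at an adjusted p of 0.10, and 1 each with a pseudocount of 0.1, a limit of a mean of 1 FPKM and the replicate block (Pik3cg; Pik3ip1 had 0.68, adjusted p = 0.0594); without an expression limit it was 0. It ranged from 0 to 12 when single libraries were left out: 0 without control 1, control 4, tumour 2, tumour 3 or tumour 4, 1 without control 5 or tumour 6, 5 without control 2 and 12 without tumour_swim 1. Over all genes, 704 were higher in the main fit, 1072 with quantile scaling and 2642 without tumour_swim 1. All-gene counts for the other settings of this paragraph are not given, so the shifts cannot be read as particular to the members. The count of members lower was 1 (Rptor) with the length trend removed, with and without the replicate block. Without the block, 1168 of all genes were lower there, in place of 457 in the main fit. In tumour_swim against control the count of members higher was 1 (Pik3r2) with the length trend removed, beside 286 of all genes, and 0 to 11 with single libraries left out. Rps6kb1 in tumour_swim against tumour changed sign, to 0.013, with the length trend removed, with and without the block. Causes were not tested. Same-numbered libraries deviated together in some pairs and in opposite directions in others (16 pairs, correlations of -0.67 to 0.677, 8 over 0.1). Of the libraries, 4 correlated best with their own number. The main fit did not use the numbers, and these values do not settle whether they pair the samples. Over the named members, without the counts, alternatives other than leaving out 1 library kept direction and side of the threshold 234 times. They passed it newly 16 times, lost it 7 times and changed sign 2 times. Most named members were not called in the main fit, so keeping their side mostly meant staying uncalled. Of the 2 called there, Pik3cg stayed called under 6 of 10 such alternatives and Pik3ip1 under 8 of 11. Low transcripts such as Pik3r5 rest on few reads.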
